A study of Mus musculus with 8 samples.

Results

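A list of 40 genes linked to autism risk was read in RNA bound by CPEB1 and CPEB4 in mouse striatum. The listed genes lie outside lists of synaptic proteins and encode mostly chromatin, transcription and signalling regulators. The list names the genes by symbol, and it was chosen with earlier results of these data known. Where a gene had several probe sets, the brightest on average was read, a choice that uses measured values. Of the 40, 34 had a probe set named with their symbol alone, among 17097 genes so measured, and 27 passed a filter on low signal, among 11345 genes tested. Not analysed here, for want of such a probe set in the annotation used, were 6 genes: the chromatin remodeller gene Chd2, whose 3 probe sets also name Chaserr, the remodelling subunit gene Arid1b, the histone methyltransferase genes Kmt2a and Ash1l, Mbd5, which encodes a protein with a methyl-CpG-binding domain, and Upf3b, of nonsense-mediated decay.

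Striatum came from male mice aged 7 to 8 months and was pooled by genotype into a WT and an HD pool, with 4 mice named in the design text. The labels do not spell out HD. Each pool was crosslinked with formaldehyde, lysed and divided into 4 fractions: input, and RNA immunoprecipitates (RIP) made with rabbit IgG, anti-CPEB1 or anti-CPEB4. Every fraction of every pool has 1 array, so the 8 arrays form 8 groups of 1 and the WT and HD pools stand in for replicates. Values are log2 probe set summaries, and pairs of values below are given as WT, then HD.

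CPEB1 and CPEB4 bind a uridine-rich element in the 3′ untranslated region of mRNAs and regulate the length of the poly(A) tail and translation. In neurons they act on stored mRNAs, and many long transcripts of brain genes carry such elements. Many genes found mutated in autism code for proteins that open, mark or read chromatin or that act as transcription factors, and several of them are sensitive to gene dosage. RIP measures how much of a transcript comes down with an antibody: IgG gives the background of beads and antibody, and input gives the transcript's own level.

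The tissue label was checked on marker lists, counting markers above the filter value of 4.23, since levels of different probe sets are not comparable. Of 9 measured markers of medium spiny neurons, the main neuron of striatum, 7 to 8 lay above it on each array. Of 9 markers of cortical excitatory neurons 4 to 7 did, so the counts alone do not tell the tissues apart. Tbr1, a transcription factor of cortical projection neurons and itself a listed autism gene, lay at 2.77 to 3.14, below that value on every array. Of the same marker list, Neurod6 was also below it on every array, while Neurod2, Rorb, Cux2 and Slc17a7 were above it on every array. Tac1, of the medium spiny neuron list, was below it on every array. In these bulk samples fewer cells of a type and less RNA per cell cannot be told apart.

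**Figure D1:**
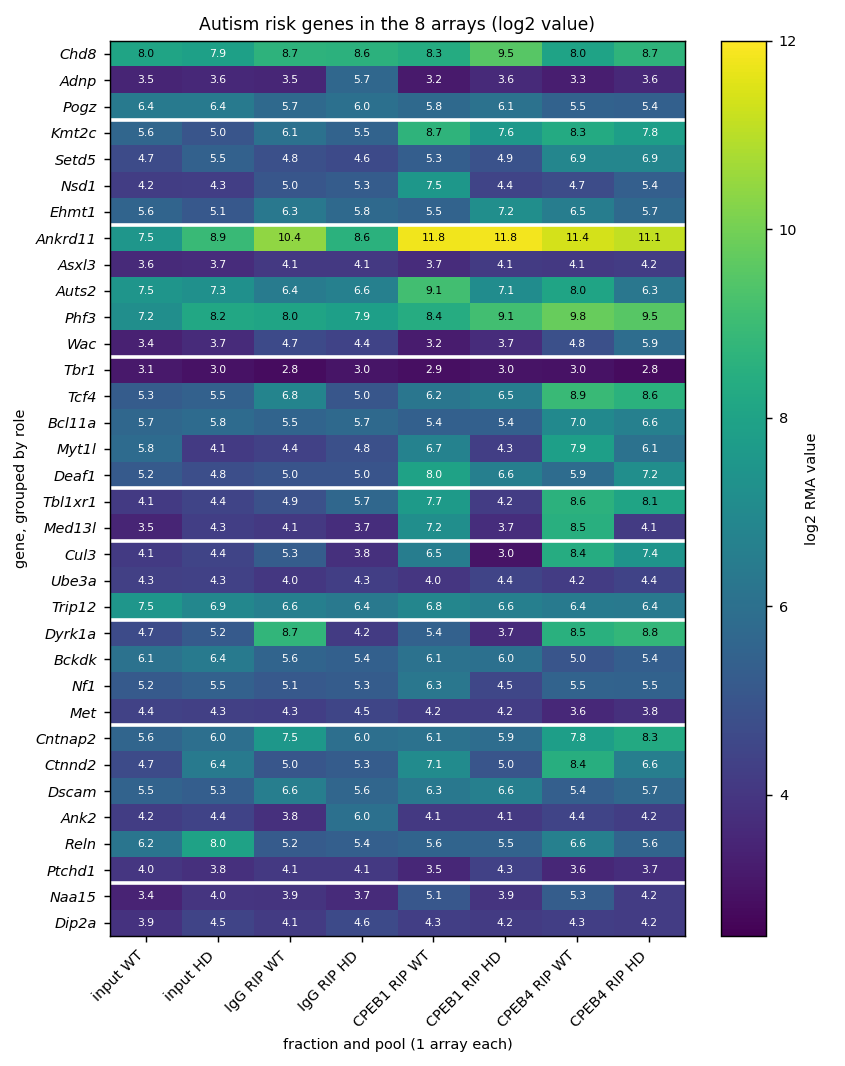
Log2 value of the 34 measured autism risk genes (rows, in blocks by role) on each of the 8 arrays (columns, 1 array per fraction and pool). Ankrd11 is the brightest row in the CPEB1 RIP at 11.79 and 11.85, and Tbr1 stays at or below 3.14 throughout.

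In the CPEB4 RIP, transcripts of several chromatin and transcription genes stood above IgG in both pools, while others of the same list did not. Of the ubiquitin ligase genes, Cul3 stood far above IgG, on its brightest probe set. Kmt2c was the single gene of 27 that passed the test (limma, Benjamini-Hochberg adjusted p under 0.05 over all genes tested), against 2.33% of all genes called higher. None of the 27 was called lower (0.0441% of all genes), and at an unadjusted p under 0.05 limma counted 8 higher (15.7% of all genes) and 0 lower (7.2%). By the arrays alone, 17 of 34 had both CPEB4 values above both IgG values, which held for 22.2% of all genes, and 4 of 34 had both below, which held for 43.4%. At least 2-fold above IgG in both pools were 8 of 34, Kmt2c, Setd5, Phf3, Tcf4, Myt1l, Tbl1xr1, Cul3 and Ctnnd2 (9.91% of all genes), and 0 were 2-fold below in both (0.719%). The median log2 difference over the 34 was 0.71, against -0.16 over all genes measured. It was 0.34 in the WT pool and 0.22 in the HD pool. After quantile normalization of the deposited values the median over the 34 was 0.35, and with probe sets averaged within a gene it was 0.47.

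These values use each gene's brightest probe set over all 8 arrays, which include the RIP arrays compared, so a probe set can be chosen through the CPEB4 values themselves. With the probe set brightest over the 2 input arrays instead, 10 of the 34 genes had another one, Kmt2c, Cul3, Tbl1xr1, Myt1l and Dyrk1a among them. The median over the 34 was then 0.47 and that of all genes -0.17, and 16 of 34 had both CPEB4 arrays above both IgG arrays (21.7% of all genes). Of 26 listed genes tested Dyrk1a was called higher by limma and Kmt2c was not, and of all 11545 genes tested 168 were called higher.

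The spread of values also differed between arrays. Over all genes tested the SD of log2 values was 1.79 and 1.68 in the CPEB4 RIP, 1.42 and 1.28 in IgG, 1.68 and 1.39 in the CPEB1 RIP, and 1.33 and 1.51 in input. Medium spiny neuron markers had a median CPEB4 over IgG difference of 0.55, and cortical excitatory neuron markers 0.13. At an unadjusted p under 0.05 by limma, 2 of 8 and 1 of 6 tested were higher (15.7% of all genes). The medians were 0.08 for striatal interneurons, 0.03 for astrocytes, 0.10 for oligodendrocyte precursors and 0.38 for oligodendrocytes, where 5 of 7 markers were higher in both pools. They were -0.29 for microglia, -0.31 for endothelial and mural cells, -0.54 for the choroid plexus and ependyma list and -0.59 for the blood list, and of the last 3 no marker was higher in both pools. Of all 17097 genes measured, 4442 were higher in both pools and 8492 lower in both. The part of the spread and of these cell types in the differences of the autism genes was not tested.

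**Figure D2:**
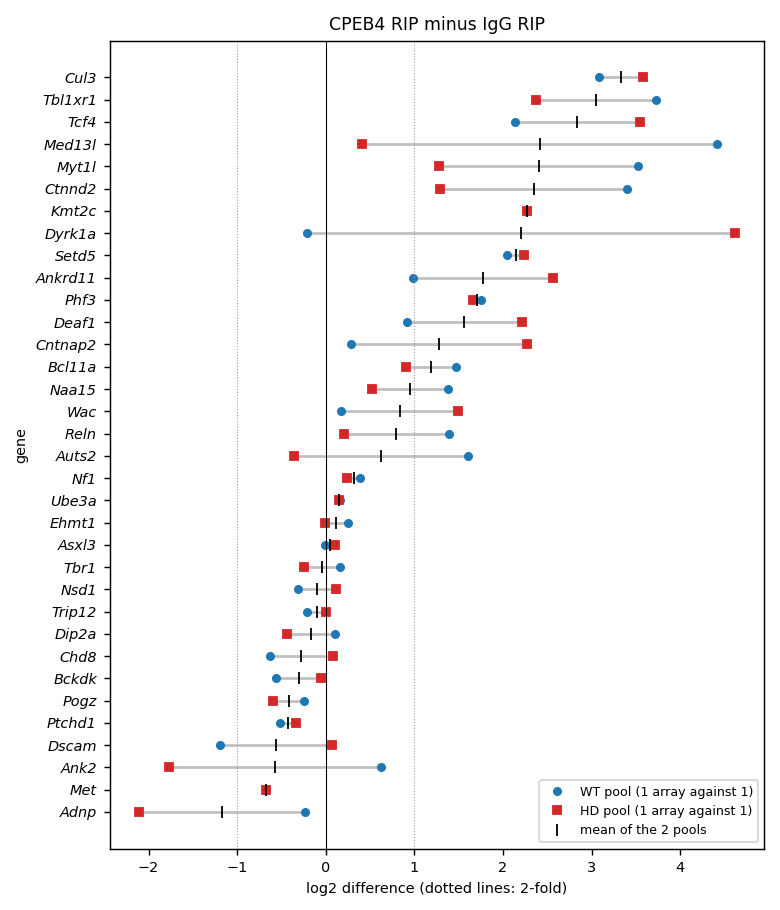
Log2 difference between CPEB4 RIP and IgG RIP (x axis) of the 34 genes (y axis), with the WT pool as circles, the HD pool as squares and their mean as a bar. The pools nearly coincide for Kmt2c at 2.26 and 2.27, and lie far apart for Dyrk1a at -0.21 and 4.61.

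Histone methyltransferases, which place methyl groups on histone tails, held the single call. Kmt2c encodes a methyltransferase of histone H3 at enhancers. Its log2 values were 5.63 and 5.0 in input, 6.06 and 5.53 in IgG, 8.31 and 7.81 in the CPEB4 RIP, and 8.67 and 7.57 in the CPEB1 RIP. All 4 antibody arrays lay above all 4 input and IgG arrays. The CPEB4 over IgG difference was 2.26 in the WT pool and 2.27 in the HD pool, 2.27 ± 0.28 (SE, 2 arrays a fraction) in the fit, or 4.81-fold, with adjusted p = 0.0367 by limma. Against input it was 2.74 ± 0.28 with adjusted p = 0.0382, the single listed gene called there, where 1.34% of all genes were called higher.

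That call rests on 1 of 4 probe sets for Kmt2c, the brightest over all 8 arrays. In input the second was the brighter, at 5.60 and 6.84. The second read 7.77 and 5.78 in the CPEB4 RIP and 5.61 and 5.71 in IgG, so that the difference was 2.16 in WT and 0.07 in HD. On the third the difference was -0.69 in WT and 1.76 in HD, and on the fourth, below the filter, -0.04. With the mean over its probe sets in place of the brightest, Kmt2c had a difference of 0.97 ± 0.26 and adjusted p = 0.115 by limma. With the probe set brightest in input, which is the second, it had 1.12 ± 0.75 and adjusted p = 0.386. The call was also lost without the pool term (adjusted p = 0.0628), with a trended robust prior (0.0528), after quantile normalization (0.104) and with only the IgG and CPEB4 arrays fitted (0.0838). It was lost without either input array (0.0596) and without any of the IgG or CPEB4 arrays (0.151 to 0.212), and the call against input was lost without any single array. Over all settings run its difference from IgG was 0.97 to 2.43, above 0 in each.

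Setd5, which encodes another SET domain protein of chromatin, came next. It read 4.68 and 5.46 in input, 4.81 and 4.63 in IgG, 6.86 and 6.87 in the CPEB4 RIP, and 5.34 and 4.90 in the CPEB1 RIP. Both CPEB4 values were above the other 6 arrays by more than 1 on the log2 scale. The CPEB4 over IgG difference of 2.14 ± 0.36 had adjusted p = 0.0568 by limma, which missed the threshold. A second probe set, below the filter, gave 0.91 in WT and -0.14 in HD. The brighter one passed in those same 2 settings in which Kmt2c did not, with adjusted p = 0.0334 without the pool term and 0.0495 with the trended robust prior.

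On their brightest probe sets the other measured methyltransferase genes lay near IgG. Ehmt1, which encodes a histone H3 methyltransferase, had a CPEB4 over IgG difference of 0.12 ± 0.65, and Nsd1, also a histone H3 methyltransferase gene, one of -0.10 ± 0.94. Nsd1 stood out on a single array: it read 7.53 in the CPEB1 RIP of WT and 4.23 to 5.38 on the other 7. Its second probe set did not follow, with 3.80 on that array and 6.51 in the CPEB4 RIP of HD, and its CPEB4 over IgG difference was 0.52 in WT and 2.48 in HD. With probe sets averaged Nsd1 had 0.70 ± 0.68.

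Among DNA-binding transcription factors, Tcf4, a basic helix-loop-helix factor also mutated in Pitt-Hopkins syndrome, had the same direction on every probe set. The brightest read 5.27 and 5.45 in input, 6.79 and 5.04 in IgG, 8.93 and 8.58 in the CPEB4 RIP, and 6.21 and 6.54 in the CPEB1 RIP. The second read 8.19 and 6.52 in the CPEB4 RIP against 5.99 and 5.16 in IgG. The third, whose mean is below the filter, read 6.97 and 6.63 in the CPEB4 RIP and 3.03 to 4.10 on the other 6 arrays. On each of the 3 probe sets both CPEB4 arrays were thus the highest of the 8.

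For the brightest probe set of Tcf4 the CPEB4 over IgG difference was 2.84 ± 0.56, with adjusted p = 0.0759 by limma. With the mean of its probe sets it was 2.74 ± 0.46 and passed the test, with adjusted p = 0.0477. Against input the difference of the brightest was 3.39 ± 0.56, with adjusted p = 0.0614.

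Bcl11a, a zinc finger repressor of neurons and blood, had 2 probe sets above the filter. The brighter read 5.67 and 5.81 in input, 5.54 and 5.74 in IgG, 5.43 and 5.41 in the CPEB1 RIP, and 7.02 and 6.65 in the CPEB4 RIP. The 6 other arrays lay within 5.41 to 5.81, and both CPEB4 arrays stood above them. The difference from IgG was 1.19 ± 0.27 (adjusted p = 0.0974 by limma), and on the second probe set it was 1.44 in WT and 1.45 in HD.

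Myt1l, a zinc finger factor that holds neuronal identity, was less even. It read 5.81 and 4.12 in input, 4.35 and 4.81 in IgG, 7.88 and 6.10 in the CPEB4 RIP, and 6.70 and 4.27 in the CPEB1 RIP. The difference of 2.40 ± 0.71 (adjusted p = 0.149 by limma) was 3.53 in WT and 1.28 in HD, so its size turned on the pool. On 3 of its 4 probe sets CPEB4 was above IgG in both pools and on 1 below.

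Deaf1, which encodes a DNA-binding factor with a SAND domain, rested on 1 probe set. It read 5.19 and 4.77 in input, 4.96 and 4.97 in IgG, 5.88 and 7.18 in the CPEB4 RIP, and 7.98 and 6.59 in the CPEB1 RIP. Both antibodies were above IgG and input in both pools, with CPEB4 ahead in HD and CPEB1 ahead in WT. The differences from IgG were 1.56 ± 0.64 for CPEB4 and 2.32 ± 0.64 for CPEB1, neither past the test. Tbr1, the remaining factor, was below the filter.

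Of the co-regulators that bridge transcription factors and the transcription machinery, Tbl1xr1 encodes a subunit of the NCoR corepressor complex. It read 4.11 and 4.44 in input, 4.87 and 5.68 in IgG, 8.60 and 8.05 in the CPEB4 RIP, and 7.67 and 4.17 in the CPEB1 RIP. CPEB4 was high in both pools and CPEB1 in WT alone. The CPEB4 over IgG difference was 3.05 ± 1.05 (adjusted p = 0.186 by limma), and it was 0.82 on the second probe set.

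Med13l, of the kinase module of Mediator, was above its other arrays in the WT antibody fractions only. Its brightest probe set exceeded the filter value on 3 of 8 arrays and passed through those fractions. It read 3.48 and 4.25 in input, 4.07 and 3.74 in IgG, 8.50 and 4.15 in the CPEB4 RIP, and 7.19 and 3.73 in the CPEB1 RIP. Its CPEB4 over IgG difference of 2.41 ± 1.33 (adjusted p = 0.311 by limma) was 4.42 in WT and 0.41 in HD. The second probe set read 5.42 in the CPEB4 RIP of WT and 2.79 to 3.93 elsewhere, with 3.23 in the CPEB1 RIP of WT, so the high CPEB1 value was not repeated.

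The other chromatin-linked genes gave 1 further gene with even pools. Phf3, whose protein binds the tail of RNA polymerase II, read 7.20 and 8.19 in input, 8.05 and 7.86 in IgG, 9.80 and 9.52 in the CPEB4 RIP, and 8.39 and 9.14 in the CPEB1 RIP. The CPEB4 arrays were the highest, and the difference from IgG was 1.71 ± 0.41 (adjusted p = 0.109 by limma). Of 2 other probe sets, 1 above the filter gave 1.36 and 1 with its mean below the filter gave 1.87. The remaining 4 of its 7 probe sets, all with means below the filter, had CPEB4 below IgG in both pools, with differences of -0.35 to -0.17.

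Ankrd11, a chromatin regulator behind KBG syndrome, was the brightest of the list. It read 7.48 and 8.92 in input, 10.41 and 8.57 in IgG, 11.40 and 11.13 in the CPEB4 RIP, and 11.79 and 11.85 in the CPEB1 RIP. All antibody arrays exceeded both IgG arrays, but the IgG arrays themselves differed, with HD minus WT at -1.84. Its differences from IgG were 1.77 ± 0.76 for CPEB4 and 2.32 ± 0.76 for CPEB1, and 3 of its 6 probe sets had CPEB4 above IgG and 3 below in both pools.

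Auts2, which encodes a partner of a Polycomb complex, read 7.47 and 7.25 in input, 6.45 and 6.64 in IgG, 8.05 and 6.28 in the CPEB4 RIP, and 9.12 and 7.10 in the CPEB1 RIP. Between CPEB4 and IgG the pools differed in sign. Its second probe set was above IgG in both, by 1.80 and 2.15. Wac, which encodes an adaptor for histone H2B ubiquitination, and Asxl3, of the Polycomb deubiquitinase complex, had means below the filter. Wac read 4.65 and 4.40 in IgG, 4.83 and 5.89 in the CPEB4 RIP, and 3.23 to 3.70 in the CPEB1 RIP and input.

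Chromatin remodellers and their partners gave no gene whose brightest probe set was above IgG in both pools. Chd8, a chromatin remodeller gene often mutated in autism, was bright in every fraction: 8.03 and 7.88 in input, 8.66 and 8.62 in IgG, 8.02 and 8.69 in the CPEB4 RIP, and 8.34 and 9.52 in the CPEB1 RIP. Its CPEB4 over IgG difference was -0.28 ± 0.41, within the spread between the pools. Adnp, a homeodomain protein that works with the remodeller CHD4, had a mean below the filter and read 5.68 in IgG of HD and 3.20 to 3.63 on the other 7 arrays.

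Pogz, which encodes a zinc finger protein bound to heterochromatin protein, is a gene whose probe sets disagreed. The brightest read 6.38 and 6.37 in input, 5.73 and 6.0 in IgG, 5.49 and 5.40 in the CPEB4 RIP, and 5.76 and 6.07 in the CPEB1 RIP. The CPEB4 arrays were the lowest. The second read 4.12 and 4.49 in IgG and 5.22 and 7.22 in the CPEB4 RIP, a difference of 1.91. The other 2 also had CPEB4 above IgG in both pools, by 0.20 and 0.57, and with probe sets averaged the difference was 0.57 ± 0.24.

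The 3 ubiquitin ligase genes differed from each other. Cul3, the scaffold of an E3 ligase that works with BTB adaptors, read 4.12 and 4.43 in input, 5.30 and 3.83 in IgG, 8.38 and 7.41 in the CPEB4 RIP, and 6.54 and 2.99 in the CPEB1 RIP. Its CPEB4 over IgG difference was 3.33 ± 0.89 (adjusted p = 0.128 by limma), and was 3.08 and 3.58 in the pools. That probe set was the brightest through the CPEB4 arrays. In input the second was brighter, at 4.73 and 4.37, and with that one the difference was -0.49 ± 0.32. The other probe sets of Cul3 gave -0.49 to 0.37, so the size was not shared between them.

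Ube3a, the ligase gene of Angelman syndrome, had CPEB4 above IgG on 3 of 3 probe sets in both pools. The differences were 0.15 on the brightest, where the CPEB4 and IgG arrays overlapped, 0.95 on the second and 0.28 on the third. Only the brightest passed the filter. Trip12, which encodes a HECT ligase, had lower values in the fractions made with beads than in input on its brightest probe set. That one read 7.49 and 6.89 in input, 6.60 and 6.35 in IgG, 6.40 and 6.35 in the CPEB4 RIP, and 6.85 and 6.60 in the CPEB1 RIP. The second, also above the filter, had the opposite order, with 3.48 and 3.49 in input, 7.38 and 3.64 in IgG, 5.48 and 4.68 in the CPEB4 RIP, and 5.07 and 3.96 in the CPEB1 RIP.

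**Figure D3:**
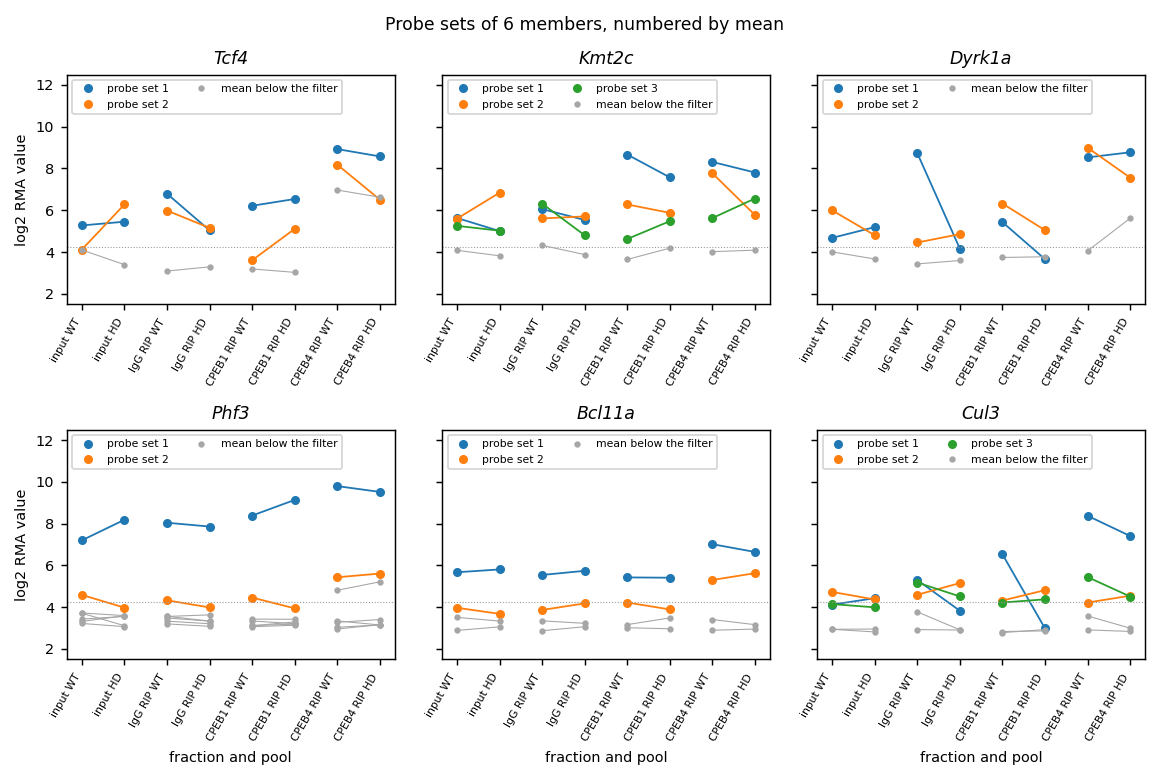
Log2 value (y axis) of every probe set of 6 of the genes on the 8 arrays (x axis; lines join the WT and HD array of a fraction, the dotted line is the filter value of 4.23, and grey marks probe sets with a mean below it). All 3 probe sets of Tcf4 are highest in the CPEB4 RIP, while a single probe set of Cul3 reaches 8.38 and 7.41 there.

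Among signalling genes, Dyrk1a, a kinase dosage-sensitive in brain growth, had 1 IgG array that decided its value. Its brightest probe set read 4.68 and 5.19 in input, 8.74 and 4.16 in IgG, 8.53 and 8.77 in the CPEB4 RIP, and 5.43 and 3.66 in the CPEB1 RIP. IgG of WT was as high as the CPEB4 arrays and IgG of HD was not, so the CPEB4 over IgG difference was -0.21 in WT and 4.61 in HD (2.20 ± 1.27 in the fit). The second probe set read 4.46 and 4.86 in IgG and 9.0 and 7.57 in the CPEB4 RIP. Its difference of 3.63 passed the test when all 16152 probe sets above the filter were fitted singly, with adjusted p = 0.0366 by limma. With the mean of its probe sets Dyrk1a had 2.38 ± 0.40 and adjusted p = 0.0496.

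The other signalling genes were near or below IgG. Nf1, the gene of a Ras GTPase-activating protein and of neurofibromatosis, had a CPEB4 over IgG difference of 0.31 ± 0.55. Bckdk, a kinase of branched-chain amino acid breakdown, read 6.09 and 6.37 in input, 5.55 and 5.41 in IgG, 5.0 and 5.36 in the CPEB4 RIP, and 6.08 and 6.0 in the CPEB1 RIP. Its CPEB4 values were thus the lowest of each pool. Met, a receptor tyrosine kinase gene, was below the filter, with 3.58 and 3.81 in the CPEB4 RIP and 4.26 and 4.48 in IgG.

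Of adhesion, membrane and matrix genes, Ctnnd2, the gene of delta-catenin, had the largest difference. It read 4.68 and 6.42 in input, 5.05 and 5.26 in IgG, 8.44 and 6.56 in the CPEB4 RIP, and 7.09 and 5.02 in the CPEB1 RIP. CPEB4 was above IgG in both pools, by 3.40 and 1.29 (2.34 ± 1.0, adjusted p = 0.237 by limma), but its HD value barely exceeded input. On its second probe set IgG of WT read 8.23, above the 7.93 of the CPEB4 RIP.

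Cntnap2, the gene of the axonal adhesion protein CASPR2, read 5.59 and 5.96 in input, 7.53 and 5.98 in IgG, 7.82 and 8.25 in the CPEB4 RIP, and 6.10 and 5.91 in the CPEB1 RIP. As with Dyrk1a, IgG of WT was high, and the difference was 0.29 in WT and 2.27 in HD. On the second probe set of Cntnap2, below the filter, the difference was -0.20 in WT and -0.47 in HD. Reln, the gene of a secreted matrix protein that guides neuron layering, read 5.24 and 5.36 in IgG, 6.63 and 5.57 in the CPEB4 RIP, 5.56 and 5.52 in the CPEB1 RIP, and 6.20 and 7.99 in input, where the HD array was its highest.

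Dscam, a cell adhesion gene of neurite self-avoidance, read 6.56 and 5.64 in IgG and 5.36 and 5.72 in the CPEB4 RIP, with no common sign. Ank2, the gene of ankyrin-B, read 6.01 in IgG of HD and 3.81 to 4.43 on the other 7 arrays. Ptchd1, which encodes a patched-domain membrane protein, was below the filter at 3.54 to 4.35. Of the last group, Naa15, a subunit of the NatA acetyltransferase, read 5.30 and 4.20 in the CPEB4 RIP and 3.91 and 3.68 in IgG, below the filter on average. It read 3.45 and 3.95 in input and 5.09 and 3.94 in the CPEB1 RIP. Of its 4 probe sets 2 had CPEB4 above IgG in both pools and 2 below. Dip2a, of the disco-interacting family, lay at 3.88 to 4.62 throughout.

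By role, the median CPEB4 over IgG difference was 2.73 over the 2 co-regulators, 1.56 over the 5 transcription factors, 1.13 over the 4 measured methyltransferases and 0.84 over the 5 other chromatin-linked genes. It was 0.19 over the 6 adhesion and matrix genes, 0.15 over the 3 ubiquitin ligases, 0.00 over the 4 signalling genes and -0.42 over the 3 remodellers. The remodeller value is that of Pogz on its brightest probe set, which its other probe sets did not share, and the ligase and co-regulator values rest on brightest probe sets likewise. These groups are small, and no difference between them was tested.

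Against IgG, RNA in the CPEB1 RIP gave no call in any gene, listed or not, with adjusted p of at least 0.121 by limma (0.0% of all genes higher and 0.0% lower). At an unadjusted p under 0.05, limma counted 3 of 27 higher (6.37% of all genes) and 0 lower (0.996%). The 3 were Kmt2c at 2.33 ± 0.28 (adjusted p = 0.121), Ankrd11 at 2.32 ± 0.76 (0.566) and Deaf1 at 2.32 ± 0.64 (0.454), the same 3 that were at least 2-fold above IgG in both pools (2.98% of all genes), while 0 were 2-fold below in both (0.328%). Both CPEB1 arrays lay above both IgG arrays in 9 of 34 genes (19.8% of all genes) and below in 3, Wac, Bcl11a and Met (15.8%). The median over the 34 was 0.27, against 0.02 over all genes.

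Kmt2c had near equal values in the CPEB4 and CPEB1 comparisons with IgG, 2.27 and 2.33, but these share their IgG arrays. Compared directly, its antibody fractions differed by 0.06 ± 0.28 (CPEB1 minus CPEB4, WT 0.36, HD -0.23). The other 3 probe sets of Kmt2c gave CPEB1 over IgG differences of 0.42, -0.51 and -0.18, and with probe sets averaged it was 0.51 ± 0.26. For Ankrd11 that average was 0.62 ± 0.30. Auts2 had the next largest CPEB1 over IgG difference, 1.57 ± 0.63 (adjusted p = 0.689 by limma), which was 2.67 in WT and 0.46 in HD. Phf3 had 0.81 ± 0.41 (adjusted p = 0.785). Dyrk1a had -1.90 ± 1.27 (adjusted p = 0.847), a value set by IgG of WT: without that array it was 0.22, and with the probe set brightest in input 1.03.

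Between the antibodies, which were compared with no IgG array in the difference, CPEB4 was ahead for several genes that it had above IgG. No listed gene passed the test, with 0.141% of all genes called lower in CPEB1 and 0.0% higher. At an unadjusted p under 0.05, limma counted 6 of 27 lower in the CPEB1 than in the CPEB4 RIP, Setd5, Tcf4, Bcl11a, Cul3, Dyrk1a and Cntnap2 (9.41% of all genes), and 1 higher, Bckdk (5.92%). Both CPEB1 arrays lay below both CPEB4 arrays in 11 of 34 genes (15.5% of all genes) and above in 6 (38.7%). At least 2-fold less in both pools was found for 9 of 34 (5.64% of all genes), and 2-fold more in both for 0 (0.509%).

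Dyrk1a differed most, by -4.11 ± 1.27 (adjusted p = 0.266 by limma; WT -3.10, HD -5.12). Cul3 followed with -3.13 ± 0.89 (0.244), or 0.18 with the probe set brightest in input, Tbl1xr1 with -2.41 ± 1.05 (0.343) and Tcf4 with -2.38 ± 0.56 (0.175). In Tcf4 the pools were nearest each other, at -2.72 and -2.04. On their brightest probe sets the genes ahead in CPEB1 by their arrays were Pogz, Ankrd11, Trip12, Bckdk, Met and Dscam. Each was ahead by less than 1 on the log2 scale. The second probe set of Pogz, also above the filter, gave -1.84. With probe sets averaged Pogz had -0.51 ± 0.24 and Trip12 -0.002 ± 0.27, while Ankrd11, Bckdk and Dscam stayed positive. The median over the 34 was -0.10, against 0.19 over all genes, and without the WT array of the CPEB4 RIP it was 0.15.

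**Figure D4:**
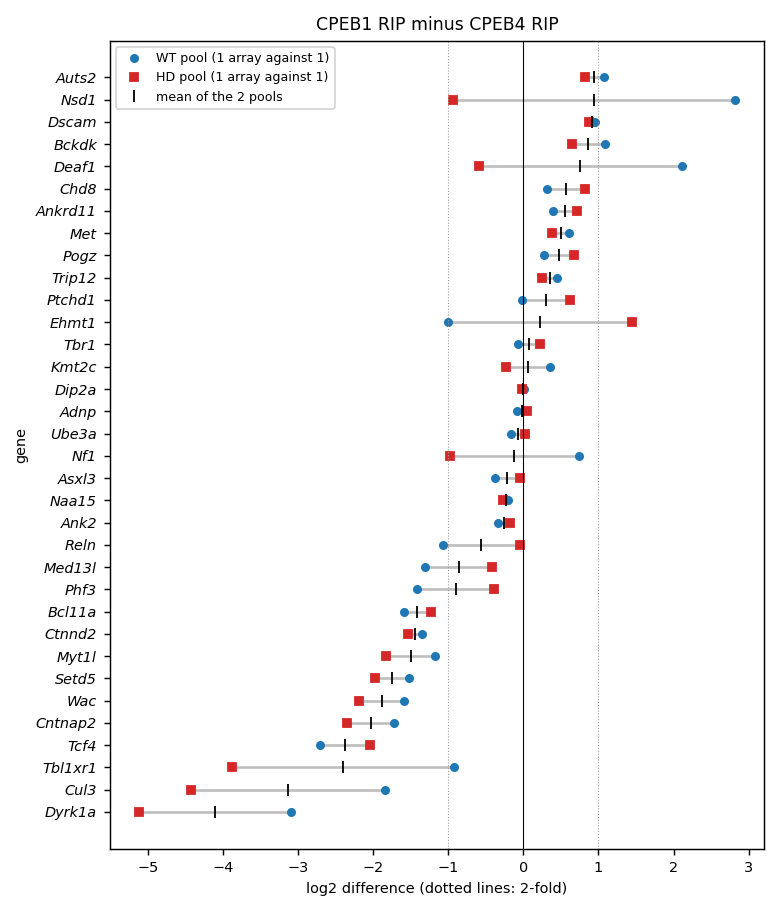
Log2 difference between CPEB1 RIP and CPEB4 RIP (x axis) of the 34 genes (y axis), with the WT pool as circles, the HD pool as squares and their mean as a bar. Negative values, with more signal in the CPEB4 RIP, reach -5.12 for Dyrk1a in the HD pool, and no gene is 2-fold positive in both pools.

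Set against input, the CPEB4 RIP gave 11 of 27 genes higher at an unadjusted p under 0.05 by limma (13.2% of all genes) and 3 lower, Pogz, Trip12 and Bckdk (12.9%). The 11 were the 8 counted over IgG together with Ankrd11, Dyrk1a and Cntnap2. Differences were 4.05 for Tbl1xr1, 3.72 for Dyrk1a, 3.62 for Cul3 and 3.06 for Ankrd11. The arrays did not overlap, with CPEB4 above, in 19 of 34 genes (19.8% of all genes) and, with CPEB4 below, in 6 (43.8%). At least 2-fold above input in both pools were 11 (8.28%), and 1, Bckdk, was 2-fold below (1.23%). Pogz was below input on its brightest probe set, but its second gave 2.12, and with probe sets averaged it had 0.43 ± 0.24.

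The CPEB1 RIP against input gave 0 calls by limma (0.0176% of all genes higher) and 5 genes higher at an unadjusted p under 0.05, Kmt2c, Ankrd11, Phf3, Deaf1 and Dscam (5.42%), with 0 lower (2.65%). Both CPEB1 arrays were above both input arrays in 8 of 34 genes (15.0%) and below in 7 (20.6%). At least 2-fold above in both pools were 3, Kmt2c, Ankrd11 and Deaf1 (2.32%), and 0 were 2-fold below (0.801%). Kmt2c had 2.81 ± 0.28 (adjusted p = 0.109 by limma) and Ankrd11 3.61 ± 0.76 (adjusted p = 0.271). With probe sets averaged these differences were 0.64 ± 0.26 and 0.88 ± 0.30. IgG against input also had no listed gene called (0.0176% of all genes higher, 0.0088% lower). At an unadjusted p under 0.05 limma counted 0 higher (3.15%) and 3 lower, Trip12, Bckdk and Reln (6.6%). Both IgG arrays were above both input arrays in 9 of 34 genes (17.9%) and below in 6 (27.4%), and 0 were 2-fold apart in both pools in either direction (1.14% above, 2.23% below). Trip12, on its brightest probe set, and Bckdk were thus lower at that level in both the IgG and the CPEB4 fraction than in input. On the second probe set of Trip12 the differences from input were 2.02 for IgG and 1.59 for CPEB4.

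Partners of these genes in the same complexes were read from lists chosen by function. Their values also rest on each gene's brightest probe set over all arrays, and no other choice is given for them here. Of 96 listed partners 79 were measured and 70 tested. In the CPEB4 over IgG test by limma 1 was called higher, against 2.33% of all genes. It was Tbl1x, the close paralogue of Tbl1xr1 in the NCoR complex. Its difference was 2.94 ± 0.46 (adjusted p = 0.0479 by limma), with 3.06 in WT and 2.81 in HD. No partner was called lower. At an unadjusted p under 0.05, limma counted 16 of 70 higher (15.7% of all genes) and 4 lower (7.2%), and the median over the 79 was 0.55, against -0.16 over all genes. Gps2, the other measured NCoR partner, was at -0.91.

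Among the COMPASS methyltransferases and subunits, to which Kmt2c belongs, 4 of 10 tested were higher at an unadjusted p under 0.05 by limma (15.7% of all genes), and the median over 11 was 1.20. The largest were Kmt2d, its sister methyltransferase, at 3.97 ± 0.84 (adjusted p = 0.0844) and the shared subunit Wdr5 at 3.18 ± 0.72 (0.0974). In the Mediator kinase module the median was 0.19 over 6. Its Cdk19 had 2.62 and Med13, the paralogue of Med13l, 2.05, with Med12 at -0.76. The other SET domain methyltransferases had a median of 0.75 over 10. Of these, Ehmt2 had 2.42, 0.74 in WT and 4.10 in HD, and Kmt5a 2.23 ± 0.37 (adjusted p = 0.0555 by limma).

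Remodelling subunits of the BAF complex had a median of 1.02 over 13, led by Arid1a at 2.32 and Smarcd3 at 1.96, with 2 of 12 tested higher at an unadjusted p under 0.05 by limma, near the 15.7% of all genes. Other CHD remodellers had -0.20, led by Chd5 at 1.91 and Chd3 at 0.86. Cullins and adaptors of Cul3 had 0.18 over 14. Spop, an adaptor of Cul3, had 4.42 ± 0.97 (adjusted p = 0.0921 by limma) and Kctd13 1.96.

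Nonsense-mediated decay factors had a median of 0.53 over 6, with Smg5 at 2.11 and Smg6 at 1.13. N-terminal acetyltransferases had -0.09 over 5, with Naa20 at 1.10 and Naa25 at -0.64. The list of Ras GTPases and their GTPase-activating proteins had 1.11 over 5, with Spred2 at 1.90 and Rasa3 at 1.35. None of these named partners passed the test.

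Between the genotype pools there is 1 array each per fraction, so differences were counted at 2-fold and not tested. In input 3 of 34 genes were at least 2-fold higher in HD, Ankrd11, Ctnnd2 and Reln (7.84% of all genes), and 1 lower, Myt1l (3.3%). Reln read 6.20 in WT and 7.99 in HD, Ctnnd2 4.68 and 6.42, and Myt1l 5.81 and 4.12. The median over the 34 was 0.16. In IgG 2 were higher, Adnp and Ank2 (3.95%), and 5 lower, Ankrd11, Tcf4, Cul3, Dyrk1a and Cntnap2 (7.0%), of which Dyrk1a moved most, by -4.58.

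In the CPEB1 RIP 12 of 34 were at least 2-fold lower in HD (12.2% of all genes) and 2 higher, Chd8 and Ehmt1 (2.59%). The lower ones were Kmt2c, Nsd1, Auts2, Myt1l, Deaf1, Tbl1xr1, Med13l, Cul3, Dyrk1a, Nf1, Ctnnd2 and Naa15, with Cul3 at -3.55, Tbl1xr1 at -3.50 and Med13l at -3.46. The median over the 34 was nonetheless -0.06. In the CPEB4 RIP 6 were lower, Auts2, Myt1l, Med13l, Ctnnd2, Reln and Naa15 (8.97%), and 2 higher, Wac and Deaf1 (3.5%), with Med13l at -4.35, Ctnnd2 at -1.89 and Myt1l at -1.78. The spread over all genes tested was also narrower in the HD than in the WT array of the CPEB1 RIP, 1.39 against 1.68, as given above, and its part in these counts was not tested.

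**Figure D5:**
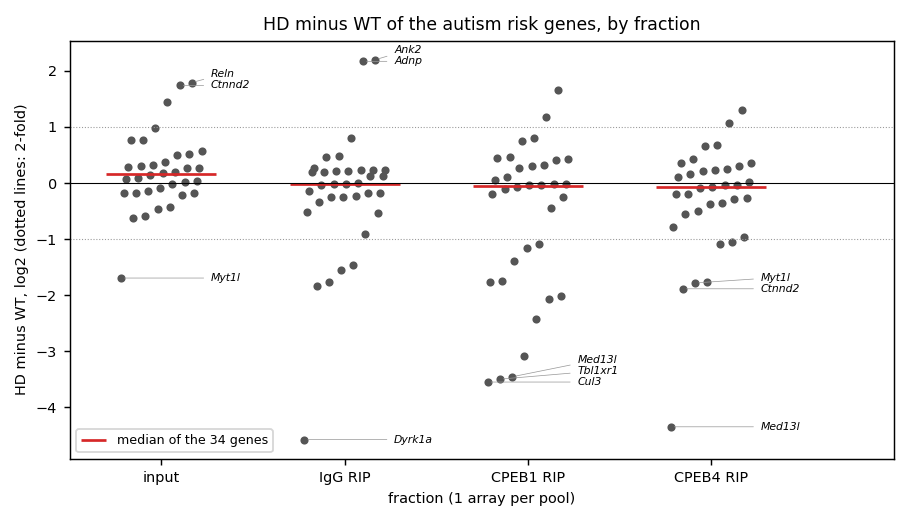
HD minus WT log2 difference (y axis) of the 34 genes in each fraction (x axis), 1 point per gene and 1 array per pool, with the median as a bar and the 3 largest named. The medians lie between -0.08 and 0.16, while single genes reach -4.58 in IgG and -4.35 in the CPEB4 RIP.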

How the data were processed

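RNA of striatum was amplified over 27 cycles and hybridized, 8 µg of cDNA per array, to 8 Affymetrix arrays, per the labels' protocols. The authors deposited log2 values per probe set from RMA (background correction, normalization and summary of probes), per the submitters' processing notes, which name no version. No further scaling was applied. Of 45101 probe sets, 28898 carried 1 gene symbol, 551 several and 15652 none in the platform annotation, and 28689 of the first were matched to RefSeq genes (GRCm38.p6). Of a gene's single-symbol probe sets the brightest on average was used, and genes entered the tests where that average exceeded 4.23, the median of that average over all probe sets.

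The comparisons of fractions used limma 3.58.1 under R 4.3.3 (two-sided, Benjamini-Hochberg adjustment over all 11345 genes tested) in a model of fraction and pool over all 8 arrays, with 3 residual and 2.29 prior degrees of freedom. The pools stand in for replicates, so the p-values rest on how far 2 pools differ in their fractions, and the number of arrays limits the precision. The fit was tested on simulated data. Standard errors (SE) come from the model. HD and WT have 1 array each per fraction and were not tested.

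The genes and lists were chosen with earlier results of these data known. Every listed gene was named. Values on all arrays were given for genes past a test and the 8 with the largest CPEB4 over IgG differences of one sign in both pools. They were also given for the 6 such in CPEB1 over IgG, the 4 largest between antibodies and the 3 largest HD minus WT differences per fraction. Genes whose probe sets disagreed were treated likewise. Some of these genes, among them Adnp, Ank2, Nsd1 and Ptchd1, were given in part by ranges. Other listed genes given array by array were chosen after their values were seen. Of each partner list, genes past the test or otherwise the 2 largest were named, and Med12 was chosen after its value was seen. The alternatives tried were the filter left out or set at the 75th percentile, probe sets averaged per gene, median centring, cyclic loess, quantile normalization, no pool term, a trended robust prior, only the fractions compared, each array left out, and folds of 1.5 and 3. Medians over genes past the filter, a fit of single probe sets, and a choice of each gene's probe set and filter by the input arrays alone were added after seeing the data. No sequences were analysed here.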

Additional observations from a re-analysis of the deposited data

Results flagged for a closer look

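Tbl1xr1 went opposite ways in the pools in the CPEB1 RIP against IgG: the log2 difference was 2.80 in WT and -1.51 in HD, so that HD minus WT was -4.31. The CPEB1 array of WT read 7.67 and that of HD 4.17, against 4.87 and 5.68 in IgG. Ehmt1 went opposite ways between the antibodies: CPEB1 minus CPEB4 was -1.0 in WT and 1.44 in HD, so that HD minus WT was 2.45. It read 5.54 and 7.19 in the CPEB1 RIP and 6.54 and 5.75 in the CPEB4 RIP. Each pool has 1 array per fraction, and neither difference between the pools was tested.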

How the results depend on the processing

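By limma, 1 listed gene was called higher in the CPEB4 RIP than in IgG in the fit as reported, 2 (Dyrk1a and Tcf4) with the mean of probe sets, 0 after quantile normalization, 0 with only those fractions, and 0 to 1 with an array left out. With the probe set brightest in input it was 1 (Dyrk1a). Against input the call of Kmt2c became 0 with the probe set brightest in input, a 75th percentile filter, the mean of probe sets, quantile normalization or only those fractions, 2 (Kmt2c and Tcf4) without the pool term, and 0 with any array left out. The other comparisons made no call of a listed gene under any alternative run. Shares of all genes called under these alternatives are not given here, except for CPEB4 over IgG with the probe set brightest in input. The median CPEB4 over IgG difference was 1.19 over genes past the filter, 1.42 over those past the 75th percentile, 0.47 with the mean of probe sets, 0.87 after centring, 0.51 after loess, 0.35 after quantile normalization, and 0.47 to 0.71 with an array left out. Against input these were 1.09, 1.67, 0.49, 0.98, 1.07 and 0.64 in that order, and 0.48 to 0.89. For CPEB1 minus CPEB4 they were -0.12, -0.34, -0.24, -0.22, -0.37 and -0.16, and -0.42 to 0.15, positive without the WT array of the CPEB4 RIP. With the probe set brightest in input the medians were 0.47 for CPEB4 over IgG, 0.29 against input, -0.056 for IgG over input and -0.10 for CPEB1 minus CPEB4. That choice reversed Cul3 to -0.49 in CPEB4 over IgG and 0.18 in CPEB1 minus CPEB4, and Dyrk1a to 1.03 in CPEB1 over IgG. For CPEB1 over IgG the median was 0.045 with the mean of probe sets. The median CPEB4 over IgG difference of all genes tested was -0.06 as deposited, 0.10 after centring, 0.03 after loess and -0.24 after quantile normalization, where the unadjusted split of 1781 higher and 817 lower became 1131 and 1484. Dyrk1a in CPEB1 over IgG reversed to 0.22 without the WT array of IgG and was -4.02 without that of HD.

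Counts of HD against WT moved as follows. Shares of all genes under each of these settings are not given here, so the counts cannot be set against them. With the mean of probe sets 0 were lower in input, 1 higher and 2 lower in IgG, and 1 higher and 7 lower in the CPEB1 RIP. After loess 4 were higher in the CPEB1 and 1 in the CPEB4 RIP, and after quantile normalization 1 in the CPEB4 RIP. At 1.5-fold 6 were higher and 3 lower in input, and 4 higher in each of the CPEB1 and CPEB4 RIP. At 3-fold 3 were lower in IgG, 1 higher in the CPEB1 RIP and 0 higher in the CPEB4 RIP. The cause was not tested for any of these changes. Signal over background limits 7 of the 34 measured genes, whose means lay below the filter. It also touches some tested genes. Med13l exceeded the filter value on 3 of 8 arrays, Ank2 and Dip2a on 4, and Cul3 and Ube3a on 5. Tbl1xr1 and Dyrk1a exceeded it on 6, Myt1l on 7, and the other tested genes on all 8.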

Other observations

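Across the 34 listed genes, the WT and HD differences of CPEB4 RIP over IgG had Pearson r = 0.44, against 0.58 across all 17097 genes measured. For CPEB1 RIP over IgG r was 0.10, against 0.21, and for CPEB4 RIP over input 0.68, against 0.53. These are descriptions across genes, which share their arrays and are not independent replicates.

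Read probe set by probe set, 40 of the 101 probe sets of these genes had both CPEB4 arrays above both IgG arrays, which held for 23.1% of all probe sets, and 23 had both below, which held for 40.6%. Of the 27 genes with several probe sets, Trip12 had none of 6 with CPEB4 above IgG in both pools and 3 below, and Dscam none of 5 above and 2 below.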
